A study of Mus musculus with 22 samples.

Results

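The miR-29 family of the mouse consists of the mature miRNAs mmu-miR-29a-3p, mmu-miR-29b-3p and mmu-miR-29c-3p (written here without the species prefix), and its abundance was measured by miRNA-seq in isolated round spermatids (RS), the early haploid cells of the male germ line. The members were chosen by name, and these 3 were found among the 1966 mature miRNA names of the count table. The other arms of the same hairpins, 4 names in all, are described beside them. The 22 libraries fall into 4 groups and 2 experimental batches. Batch 1 held 5 WT libraries and 5 libraries of GRTH-KO mice, which lack the testicular RNA helicase GRTH (DDX25). The study's methods number the batches the other way round, and the order of the sample labels is used here. Batch 2 held 6 WT libraries and 6 libraries of GRTH-KI mice. Per the study, the KI mice are transgenic for human GRTH with the R242H substitution and lack phosphorylated GRTH. All mice were 75 to 85 days old. Both mutant strains are sterile and their RS do not elongate, so the testes of the mutants hold no later spermatids while those of WT mice do. The labels do not say whether the samples of a group came from separate mice, and p-values then measure the spread between these samples.

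A miRNA guides an Argonaute protein to messenger RNAs that pair with its seed, and the paired messengers are repressed. The miR-29 family is known for targeting collagens and other matrix proteins and the de novo DNA methyltransferases, and it is widely expressed in differentiated tissues. The family is made from a pair of gene clusters, so that each cluster yields miR-29b together with one of the other members.

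The mature sequences of the members (RefSeq, GRCm38.p6) are shown because they carry the same seed and differ from each other at few bases. Capitals mark the seed, bases 2 to 8 counted from 1 at the 5′ end.
miR-29a-3p: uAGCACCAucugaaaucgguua
miR-29b-3p: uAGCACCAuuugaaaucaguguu
miR-29c-3p: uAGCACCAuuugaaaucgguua
The seed AGCACCA was found in these 3 names and in no other of the 1675 names of the table that had a RefSeq sequence. Relative to miR-29a-3p, miR-29c-3p carries the single substitution C10U, and both are 22 bases long. Relative to miR-29a-3p, miR-29b-3p carries C10U, G18A, U21G and A22U and has 1 more base. Relative to miR-29b-3p, miR-29c-3p carries A18G, G21U and U22A after 17 shared bases. The other arms of the hairpins do not carry this seed, as the 2 arms of higher count show.
miR-29a-5p: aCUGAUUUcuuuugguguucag
miR-29c-5p: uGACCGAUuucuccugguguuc

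On GRCm38, miR-29a-3p lies on the minus strand of chromosome 6 (31062673 to 31062694) within Mir29a. The sequence of miR-29b-3p has 2 loci, chromosome 6 (31063025 to 31063047, minus strand) within Mir29b-1 and chromosome 1 (195037091 to 195037113, plus strand) within Mir29b-2. miR-29c-3p lies on the plus strand of chromosome 1 (195037600 to 195037621) within Mir29c. The hairpins of Mir29b-1 and Mir29a are separated by 275 bases, and those of Mir29b-2 and Mir29c by 426 bases. The chromosome 1 loci are within an exon of the noncoding transcript A330023F24Rik on the same strand and overlap an exon of Cd46 on the opposite strand. The counting was strand-specific. The chromosome 6 loci overlap no other annotated gene. Since miR-29b-3p comes from both clusters, its count does not tell them apart.

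Total counts ranged from 870913 to 1081333 in WT and from 559957 to 881323 in KO of batch 1, and from 2067322 to 3239357 in WT and from 2107461 to 3101145 in KI of batch 2. A miRNA with 3 counts would stand at 2.77 to 5.36 CPM (the count relative to the size of its library) in batch 1 and at 0.926 to 1.45 CPM in batch 2, for counting error only. All members lay far above these floors in every library. The germ cell miRNAs miR-34b-5p, miR-34c-5p and miR-449a-5p, which mark meiotic and haploid male germ cells, were present in all groups, with summed levels between 159730 and 411310 CPM.

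The levels below are CPM scaled by TMM factors over the 22 libraries, in the order of the replicate numbers. miR-29a-3p stood at 3230, 2958, 3186, 2825 and 3648 CPM in WT of batch 1 and at 3914, 3055, 2968, 3593 and 3818 CPM in KO. In batch 2 its median was 7147 CPM in WT (6967 to 8086) and 8387 CPM in KI (7703 to 9198). Every library of batch 2 was above every library of batch 1. miR-29b-3p was at 4912, 4790, 5404, 4954 and 4668 CPM in WT of batch 1 and at 4774, 4339, 3645, 4309 and 4480 CPM in KO. Its median in batch 2 was 3146 CPM in WT (2639 to 3541) and 3188 CPM in KI (2469 to 4073). For this member the WT groups were in the opposite order, and only 1 KO library, replicate 3, lay below the highest KI library. miR-29c-3p, the least abundant member, had 149, 74.7, 112, 122 and 141 CPM in WT of batch 1 and 158, 181, 143, 179 and 134 CPM in KO. In batch 2 its median was 468 CPM in WT (365 to 566) and 555 CPM in KI (410 to 761), again above every library of batch 1.

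**Figure D1:**
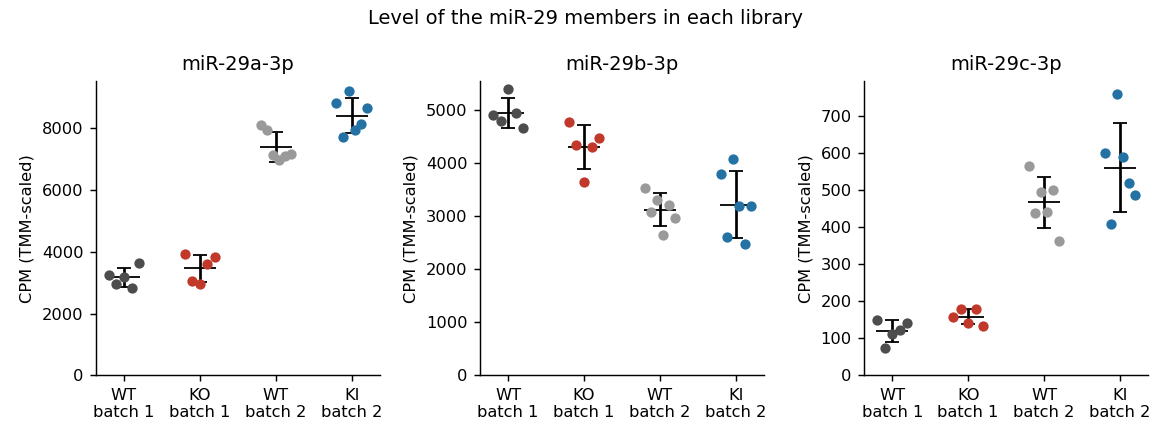
Level of each member in the 22 libraries, in CPM scaled by TMM, with 1 panel per member and 1 column per group. Points are libraries, the long bar is the group mean and the whiskers are 1 SD (n = 5, 5, 6 and 6). miR-29a-3p and miR-29c-3p sit higher in both groups of batch 2 than in batch 1, while the 6 WT libraries of batch 2 lie below the 5 WT libraries of batch 1 for miR-29b-3p.

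The means were 3169 ± 315 CPM (SD, n = 5) in WT of batch 1, 3470 ± 435 (SD, n = 5) in KO, 7395 ± 480 (SD, n = 6) in WT of batch 2 and 8398 ± 572 (SD, n = 6) in KI for miR-29a-3p. For miR-29b-3p they were 4946 ± 280, 4310 ± 415, 3125 ± 311 and 3220 ± 632 CPM in the same order. For miR-29c-3p they were 119.5 ± 29.1, 159 ± 21, 468 ± 68.8 and 562 ± 120 CPM. Ordered by mean, miR-29a-3p and miR-29c-3p went up from WT of batch 1 through KO and WT of batch 2 to KI, and miR-29b-3p went down from WT of batch 1 through KO and KI to WT of batch 2. Of the neighbours in these orders, KI and WT of batch 2 were not called different for miR-29b-3p or miR-29c-3p, nor were KO and WT of batch 1 for miR-29a-3p. The ranks among all names were taken by mean CPM of library totals, without TMM factors. By this measure miR-29a-3p ranked 40, 34, 22 and 15 in WT of batch 1, KO, WT of batch 2 and KI. In the same order miR-29b-3p ranked 30, 32, 43 and 41, and miR-29c-3p ranked 173, 161, 112 and 103.

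The family as a whole took 0.914% ± 0.0528 (SD, n = 5) of all counts in WT of batch 1, 0.965% ± 0.0405 (SD, n = 5) in KO, 0.933% ± 0.0521 (SD, n = 6) in WT of batch 2 and 1.11% ± 0.0987 (SD, n = 6) in KI. In TMM-scaled CPM the sum was 8235 ± 372, 7938 ± 809, 10988 ± 752 and 12180 ± 1259 in the same order. miR-29a-3p made up 38.5% ± 2.89 of the family's counts in WT of batch 1 and 67.3% ± 1.85 in WT of batch 2. The share of miR-29b-3p was 60.1% ± 3.04 and 28.4% ± 1.59, and that of miR-29c-3p 1.45% ± 0.334 and 4.25% ± 0.481. miR-29b-3p had more counts than miR-29a-3p in 10 of 10 libraries of batch 1, and miR-29a-3p had more than miR-29b-3p in 12 of 12 libraries of batch 2. How reads that match both loci of miR-29b-3p were counted is uncertain. If each of its reads had been counted at both loci, its counts would be even, and they were even in 11 of 22 libraries. In the libraries with odd counts, not every read was therefore counted at both loci. Of the 39 names with 2 loci and enough counts for this check, 9 were even in every library. In the extreme case, with its counts divided by its 2 loci, miR-29a-3p would be the higher member in 10 of 10 libraries of batch 1 too. The ratios would then lie between 1.14 and 1.70, against 4.31 to 6.59 in batch 2. Counts of different miRNAs are not calibrated to each other, and the order of the members is an order of counts.

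WT was the only genotype in both batches, so WT of batch 2 was compared with WT of batch 1 to measure how the members differ between batches without a difference in genotype. All 3 members passed the threshold of the study, a Benjamini-Hochberg adjusted p under 0.1 (here from edgeR), with 2 higher and 1 lower in batch 2. Over all 383 miRNAs tested, 56.7% were called, 26.9% higher and 29.8% lower. miR-29c-3p was 3.78-fold higher in batch 2 (log2 fold change 1.92, SE 0.16, 95% interval 1.58 to 2.26, adjusted p = 1.26e-07 in edgeR) and had the 5th largest increase of the 383. miR-29a-3p was 2.24-fold higher (log2 fold change 1.16, SE 0.08, 95% interval 0.99 to 1.34, adjusted p = 3.17e-08 in edgeR), the 18th largest increase. miR-29b-3p was 1.65-fold lower (log2 fold change -0.72, SE 0.08, 95% interval -0.89 to -0.55, adjusted p = 2.75e-06 in edgeR), the 54th largest decrease. The WT libraries of the batches did not overlap for 3 of 3 members, as for 37.9% of all miRNAs tested. The median log2 fold change was 1.16 over the members and -0.01 over all miRNAs.

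**Figure D2:**
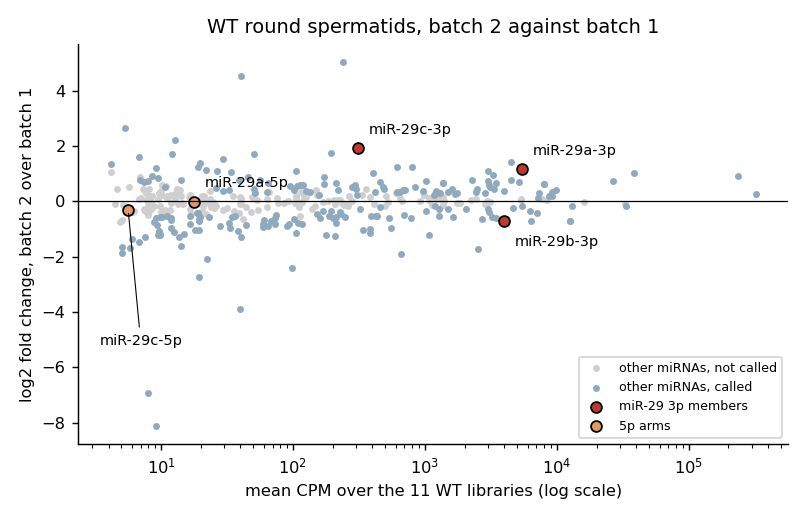
WT round spermatids of batch 2 against batch 1, with the mean CPM over the WT libraries on the x axis (log scale) and the log2 fold change on the y axis for each of the 383 miRNAs tested. Grey points were not called and blue points were called at an adjusted p under 0.1. The 3 members (red) lie at 1.92, 1.16 and -0.72, and the 5p arms of Mir29a and Mir29c (orange) lie at -0.01 and -0.31.

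With library size only in place of TMM factors, the median of all miRNAs was -0.34 on the log2 scale, and relative to that median miR-29a-3p was at 1.18, miR-29b-3p at -0.71 and miR-29c-3p at 1.92. For comparison by the length of the mature miRNA, the median log2 fold change was -0.00 over the 167 miRNAs of 22 bases, the length of miR-29a-3p and miR-29c-3p, and -0.03 over the 67 miRNAs of 23 bases, the length of miR-29b-3p. Other lists moved with the batches too. The summed level of 3 germ cell miRNAs was between 185908 and 226650 CPM in WT of batch 1 and between 357481 and 411310 CPM in WT of batch 2, with 2 of 3 called higher. The summed level of 4 striated muscle miRNAs was between 12.9 and 38.7 CPM and between 52.2 and 768 CPM, with 2 of 3 tested called higher and miR-206-3p at 0 in every library. The summed level of 5 leukocyte miRNAs was between 4081 and 5090 CPM in WT of batch 1 and between 2960 and 3966 CPM in WT of batch 2, with 1 of 5 called higher and 2 of 5 lower. The 5 stromal and smooth muscle miRNAs overlapped, at 634 to 1851 CPM and 1200 to 2037 CPM, with 1 of 4 tested called higher, and 0 of 1 tested was called for red cells and for endothelium. Their part in the differences between batches was not tested. The labels name the batches by an experiment code alone, so mice, cell isolation, library construction and sequencing run cannot be told apart.

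KO was set against WT to ask whether RS without GRTH differ in any member. miR-29c-3p was higher and miR-29b-3p lower in KO, both by small amounts, and miR-29a-3p was not called. The 2 of 3 members called stand beside 41.9% of the 334 miRNAs tested, and the 1 called higher and the 1 called lower beside 21.3% and 20.7%. miR-29c-3p was 1.36-fold higher (log2 fold change 0.44, SE 0.17, 95% interval 0.08 to 0.81, adjusted p = 0.0619 in edgeR). Of the KO libraries, 3 of 5 were above every WT library. miR-29b-3p was 1.13-fold lower (log2 fold change -0.17, SE 0.07, 95% interval -0.33 to -0.02, adjusted p = 0.0843 in edgeR), with 4 of 5 KO libraries below every WT library. miR-29a-3p had a log2 fold change of 0.16 (SE 0.09, 95% interval -0.04 to 0.35, adjusted p = 0.183 in edgeR). The groups overlapped for all 3 members, whereas they did not overlap for 20.1% of all miRNAs tested. The median log2 fold change was 0.16 over the members and 0.01 over all miRNAs.

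Both KO calls depended on single libraries. Without 1 library, miR-29b-3p was no longer called for WT replicate 1 (log2 fold change -0.18), WT replicate 3 (-0.14), WT replicate 4 (-0.17), KO replicate 2 (-0.18), KO replicate 3 (-0.13) and KO replicate 4 (-0.18). Its adjusted p ranged from 0.0527 to 0.187 over the 10 fits in edgeR. miR-29c-3p was no longer called without WT replicate 3 (0.42), WT replicate 4 (0.45), KO replicate 2 (0.39), KO replicate 3 (0.46) or KO replicate 4 (0.39), with an adjusted p between 0.0446 and 0.154 in edgeR. The call of miR-29b-3p was also lost under 6 of 8 other settings, with log2 fold changes between -0.23 and -0.07 and adjusted p up to 0.463.

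**Figure D3:**
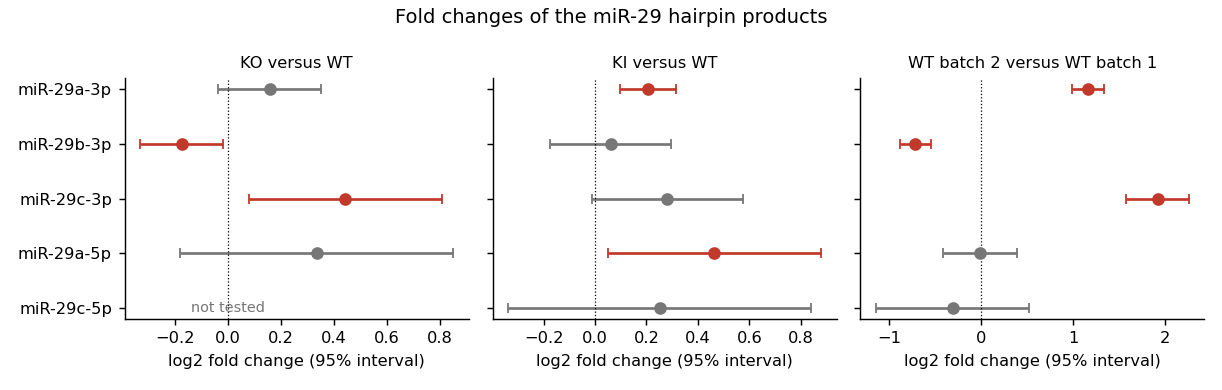
Log2 fold change (points) with 95% interval (whiskers) of the members and of the 5p arms that were tested, in KO against WT, KI against WT and WT of batch 2 against WT of batch 1; the x axes differ between panels. Red marks an adjusted p under 0.1 in edgeR. The largest values, 1.92 and 1.16, are in the comparison of the batches, and the largest value for a mutant is 0.46.

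In KI, miR-29a-3p rose 1.15-fold over the WT libraries of its batch (log2 fold change 0.21, SE 0.05, 95% interval 0.10 to 0.31, adjusted p = 0.00725 in edgeR). Of the KI libraries, 4 of 6 were above every WT library. It was the 1 member of 3 called, where 38.0% of the 387 miRNAs tested were called, 18.1% higher and 19.9% lower. miR-29a-3p was called under each of 8 other settings and without any 1 of the 12 libraries, with log2 fold changes between 0.18 and 0.29. With library size only, the median of all miRNAs was 0.09 and miR-29a-3p stood 0.20 above it. miR-29b-3p had a log2 fold change of 0.06 (SE 0.11, 95% interval -0.17 to 0.30, adjusted p = 0.691 in edgeR). Its KI libraries scattered to both sides of WT, with 2 of 6 above and 2 of 6 below every WT library. miR-29c-3p had a log2 fold change of 0.28 (SE 0.14, 95% interval -0.01 to 0.57, adjusted p = 0.136 in edgeR), and 3 of 6 KI libraries were above every WT library. It passed the threshold without KI replicate 2 (0.35, adjusted p = 0.0453 in edgeR) and without KI replicate 6 (0.32, adjusted p = 0.0997 in edgeR). The groups overlapped for all members, whereas 12.4% of all miRNAs tested did not overlap. The median log2 fold change was 0.21 over the members and 0.00 over all miRNAs.

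Markers of other cells moved with genotype beside these values. The summed level of 5 stromal and smooth muscle miRNAs (miR-143-3p, miR-145a-5p, miR-199a-3p, miR-199a-5p and miR-214-3p), none of them at 0, was between 634 and 1851 CPM in WT and between 1806 and 3741 CPM in KO of batch 1. In batch 2 it was between 1200 and 2037 CPM in WT and between 2061 and 4776 CPM in KI. Of this list, 4 of 4 tested were called higher in KO and 4 of 4 in KI. The 5 leukocyte miRNAs summed to between 4081 and 5090 CPM in WT and between 4438 and 6257 CPM in KO, with 3 of 5 called higher, and to between 2960 and 3966 CPM in WT and between 3715 and 5934 CPM in KI, with 5 of 5 called higher. Red cell miRNAs (4 of 5 listed in the table, none at 0) summed to 18.2 to 101 CPM in WT and 10.4 to 149 CPM in KO, and to 25.5 to 62.6 CPM in WT and 16.8 to 62.7 CPM in KI. The 2 endothelial miRNAs summed to 139 to 355 CPM in WT and 140 to 353 CPM in KO, and to 181 to 360 CPM in WT and 149 to 427 CPM in KI. In both lists 0 were called in KO and KI, with 1 tested in each. The striated muscle list summed to 24.4 to 152 CPM in KO, with 1 of 1 tested called higher, and to 46.6 to 527 CPM in KI, with 0 of 3 called. Germ cell miRNAs summed to 159730 to 215014 CPM in KO, with 2 of 3 called lower, and to 330493 to 378503 CPM in KI, with 1 of 3 called lower. In total counts, 4 of 5 KO libraries were below every WT library of their batch. The part of these differences in the values of the members was not tested. In such bulk samples, fewer cells of a type and less RNA per cell cannot be told apart.

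The KO effect and the KI effect were compared in a fit of all 4 groups. No member was called. The KO effect minus the KI effect was -0.05 for miR-29a-3p (SE 0.11, 95% interval -0.29 to 0.18, adjusted p = 0.833 in edgeR), -0.24 for miR-29b-3p (SE 0.15, 95% interval -0.55 to 0.07, adjusted p = 0.481 in edgeR) and 0.15 for miR-29c-3p (SE 0.23, 95% interval -0.32 to 0.62, adjusted p = 0.769 in edgeR). Of 421 miRNAs tested, 0% were called in edgeR and 0 in DESeq2, while 67 had an unadjusted p under 0.05. Without KI replicate 2, 26 were called, and without WT replicate 1 of batch 2, 1 was called. KO and KI were in different batches, so genotype and batch cannot be told apart between their levels, which were not tested against each other. Every KI library was above every KO library for miR-29a-3p and miR-29c-3p. For miR-29b-3p the mutant groups overlapped, at 3645 to 4774 CPM in KO and 2469 to 4073 CPM in KI.

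Ratios of members within a library do not depend on library size or on TMM factors. The 9 tests of them, 3 ratios in each of 3 comparisons, were adjusted together, and a ratio was called at an adjusted p under 0.1. Between the WT groups, the ratio of miR-29a-3p to miR-29b-3p was 0.658, 0.618, 0.590, 0.570 and 0.782 in batch 1, against 2.15 to 2.64 in batch 2. The ratio of miR-29c-3p to miR-29b-3p was 0.0304, 0.0157, 0.0208, 0.0246 and 0.0303 in batch 1, against 0.123 to 0.168 in batch 2, a 6.31-fold difference. The ratio of miR-29c-3p to miR-29a-3p was between 0.0254 and 0.0462 and between 0.0510 and 0.0707. None of these ratios overlapped between the WT groups, and each reached the smallest p that an exact two-sided permutation test of 5 against 6 libraries allows, 0.00433 (adjusted 0.0130). The log2 differences were 1.89 (SE 0.09), 2.66 (SE 0.19) and 0.77 (SE 0.17) in the same order. The 3 ratios between members thus differed between the WT groups. miR-29a-3p and miR-29c-3p, which differ at 1 base, were not higher in batch 2 to an equal degree. miR-29b-3p and miR-29c-3p share their first 17 bases. The trimming step kept reads as short as 15 bases, and whether reads that short were aligned was not tested. Whether reads of one member were also counted for another was not tested.

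**Figure D4:**
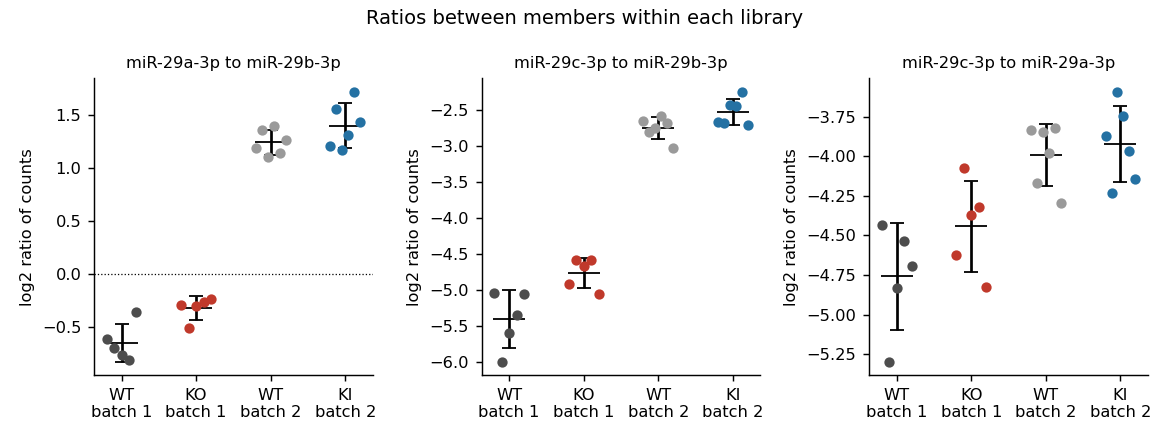
Ratios between members within each library, as log2 of the ratio of counts, with 1 panel per pair of members and 1 column per group. Points are libraries, long bars are means and whiskers 1 SD (n = 5, 5, 6 and 6). The dotted line at 0 marks equal counts, which miR-29a-3p and miR-29b-3p cross between the batches, and the WT groups do not overlap in any panel.

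In KO, the ratio of miR-29a-3p to miR-29b-3p was 0.820, 0.704, 0.814, 0.834 and 0.852, so that 4 of 5 KO libraries were above all WT libraries. It was 1.26-fold higher than in WT (log2 difference 0.33, SE 0.09, exact permutation p = 0.0159, adjusted 0.0357). The ratio of miR-29c-3p to miR-29b-3p was 0.0332, 0.0418, 0.0394, 0.0418 and 0.0301 in KO, 1.56-fold higher than in WT (log2 difference 0.64, SE 0.20, exact permutation p = 0.0238, adjusted 0.0429). Both stayed called without any 1 of the 10 libraries, at an adjusted p of at most 0.0779 in the exact permutation test. The ratio of miR-29c-3p to miR-29a-3p was between 0.0353 and 0.0593 in KO and was not called (log2 difference 0.31, SE 0.20, exact permutation p = 0.151, adjusted 0.17). It was called without KO replicate 5 alone, with a log2 difference of 0.41 (exact permutation test, adjusted p = 0.0816).

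In KI, the ratio of miR-29c-3p to miR-29b-3p had a median of 0.172 (0.153 to 0.211) against 0.153 in WT (0.123 to 0.168), 1.17-fold higher (log2 difference 0.22, SE 0.10, exact permutation p = 0.0519, adjusted 0.0779). This call was lost without WT replicate 2 (0.21), WT replicate 3 (0.22), WT replicate 6 (0.17), KI replicate 3 (0.20), KI replicate 4 (0.21) or KI replicate 5 (0.17), with an adjusted p up to 0.156 in the exact permutation test. The ratio of miR-29a-3p to miR-29b-3p had a median of 2.60 (2.26 to 3.30) in KI against 2.35 (2.15 to 2.64) in WT, and was not called (log2 difference 0.16, SE 0.10, exact permutation p = 0.145, adjusted 0.17). The ratio of miR-29c-3p to miR-29a-3p differed by 0.07 on the log2 scale (SE 0.13, exact permutation p = 0.608). The groups overlapped for every ratio in KO and KI.

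The other arms of the hairpins had far fewer counts than the members. Over the libraries of a group, miR-29a-5p had 95 counts in WT of batch 1, 94 in KO, 237 in WT of batch 2 and 346 in KI. miR-29c-5p had 34, 27, 69 and 85, miR-29b-1-5p 13, 13, 24 and 24, and miR-29b-2-5p 14, 6, 17 and 13. The 5p arms of miR-29b, whose hairpins could tell the clusters apart, had at most 9 counts in a library and were below the filter in every comparison. For every count of miR-29a-5p there were 181 of miR-29a-3p in WT of batch 1, 156 in KO, 408 in WT of batch 2 and 337 in KI. For every count of miR-29c-5p there were 19.1, 25.5, 89.4 and 92.8 of miR-29c-3p.

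Neither 5p arm tested was called between the batches. In WT of batch 2 against WT of batch 1, miR-29a-5p had a log2 fold change of -0.01 (SE 0.19, 95% interval -0.42 to 0.39, adjusted p = 0.969 in edgeR), an interval that lies below that of miR-29a-3p (0.99 to 1.34). miR-29c-5p had a log2 fold change of -0.31 (SE 0.39, 95% interval -1.14 to 0.52, adjusted p = 0.546 in edgeR), also below the interval of miR-29c-3p (1.58 to 2.26). The sign of the value of miR-29a-5p changed with the scaling, and it was not called under any setting tried. The share of the 5p arm in the counts of the Mir29a hairpin was 0.546% ± 0.0723 (SD, n = 5) in WT of batch 1 and 0.242% ± 0.0426 (SD, n = 6) in WT of batch 2, and the libraries of the 2 groups did not overlap (0.468% to 0.652% and 0.176% to 0.284%). For the Mir29c hairpin the share was 4.82% ± 1.86 (SD, n = 5) and 1.12% ± 0.575 (SD, n = 6), and the libraries overlapped (1.63% to 6.37% and 0.564% to 1.95%). These differences between arms were not tested.

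In KI, miR-29a-5p was 1.38-fold higher than in WT (log2 fold change 0.46, SE 0.19, 95% interval 0.05 to 0.88, adjusted p = 0.0852 in edgeR), with between 28 and 85 counts per KI library and between 23 and 50 per WT library. The call was lost without WT replicate 2 (0.42), WT replicate 5 (0.48), WT replicate 6 (0.42), KI replicate 1 (0.48), KI replicate 3 (0.34) or KI replicate 4 (0.40). In KO, miR-29a-5p had a log2 fold change of 0.33 (SE 0.24, 95% interval -0.18 to 0.85, adjusted p = 0.282 in edgeR). miR-29c-5p had 0.25 in KI (SE 0.28, 95% interval -0.34 to 0.84, adjusted p = 0.504 in edgeR) and was below the filter in KO.

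The miRNAs most like each member were found by Pearson's r of log2(CPM + 1) over the 22 libraries, among the 296 miRNAs whose mean reached 10 CPM in every group. These correlations are descriptions. The libraries share 2 batches and 4 groups, so these r values include differences between the groups. miR-29a-3p was most like miR-30e-5p (0.979), miR-468-5p (0.975) and miR-15a-5p (0.972). miR-29b-3p was most like let-7g-5p (0.947), miR-18a-5p (0.934) and miR-871-5p (0.924). miR-29c-3p was most like miR-29a-3p (0.963), miR-101a-3p (0.962) and miR-16-1-3p (0.942). miR-29b-3p ran against its relatives, with r of -0.775 to miR-29a-3p and -0.754 to miR-29c-3p. The mean level of miR-30e-5p was 5982 ± 474 CPM (SD, n = 5) in WT of batch 1 and 9633 ± 655 (SD, n = 6) in WT of batch 2. That of let-7g-5p was 5042 ± 182 and 3342 ± 173 CPM.

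With the group means subtracted, so that only differences among libraries of one group remain, the order changed. miR-29a-3p and miR-29b-3p then had an r of 0.522, and miR-29c-3p had 0.365 with miR-29a-3p and 0.504 with miR-29b-3p. miR-29a-3p was most like miR-148b-3p (0.823), miR-34c-5p (0.782), an abundant germ cell miRNA, and miR-878-5p (0.770). miR-29b-3p was most like miR-471-5p (0.886), let-7g-5p (0.872) and miR-30b-5p (0.828). miR-29c-3p was most like miR-101a-3p (0.923), miR-199a-5p (0.867) and miR-199a-3p (0.860), and both miR-199a products are in the list of stromal and smooth muscle markers given above. miR-199a-5p had medians of 298 CPM in WT of batch 1 (136 to 425), 542 in KO (365 to 824), 446 in WT of batch 2 (264 to 476) and 716 in KI (441 to 1153). miR-101a-3p had medians of 88.6 CPM (38.8 to 101), 142 (107 to 182), 307 (190 to 348) and 403 (252 to 618) in the same order. The WT library with the lowest miR-29c-3p of batch 1, replicate 2 at 74.7 CPM, was also the lowest of its group for both.

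**Figure D5:**
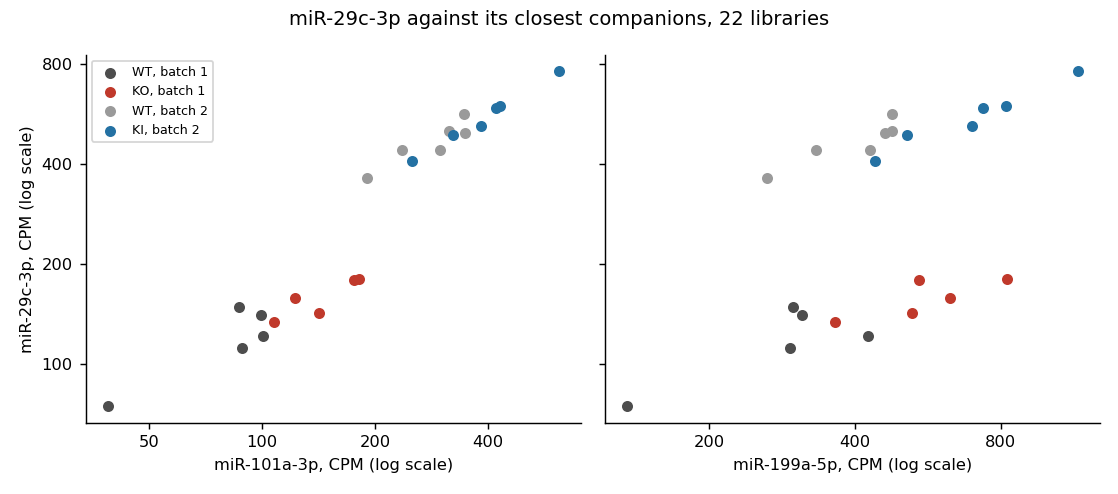
Level of miR-29c-3p (y axis, CPM, log scale) against miR-101a-3p (left) and miR-199a-5p (right, both x axes in CPM on a log scale) in the 22 libraries, coloured by group. Within a group, libraries high in one tended to be high in the other; between the WT groups miR-29c-3p and miR-101a-3p differ by several fold, while the WT libraries of both batches lie between 136 and 476 CPM for miR-199a-5p.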

How the data were processed

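Small RNA was purified from isolated RS and sequenced. The deposited table holds raw counts of reads per mature miRNA and library. Per the file headers and the study's methods, the authors trimmed adapters with cutadapt 3.4 (minimum read length 15), aligned reads to GRCm38 (mm10) with Bowtie2 2.4.2 in local mode with up to 100 alignments per read, and counted them by strand with featureCounts 2.0.1 on mature miRNA names. Reads marked as duplicates were kept. The command holds no option for multi-mapped reads. Use of molecular identifiers is not given in the sources used here, so floors cover counting error only. The submitters' processing notes also name SAMtools 1.12 and FastQC 0.11.9.

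Names of samples were matched to groups by the titles and the batch label, and every library column was used. The counts were tested in edgeR 4.0.16 (R 4.3.3), by its quasi-likelihood F test, with TMM factors, the filterByExpr filter and Benjamini-Hochberg adjustment over all miRNAs tested. The adjusted p threshold of 0.1 is that of the study. KO was compared with WT of batch 1, KI with WT of batch 2, and WT between batches, each in its own fit with no other term. The difference of the KO and KI effects was a contrast in a fit of the 4 groups. CPM levels use TMM factors over all 22 libraries, so ratios of levels differ slightly from fitted folds. Ratios of members are log2 of counts with 0.5 added, tested with two-sided exact permutation tests (scipy 1.17.1). Alternatives were library size only, RLE size factors, TMM on all but the 10 most abundant miRNAs, no filter, DESeq2 1.42.0, a replicate block, counts divided by the number of loci, 1 fit of all groups, and each library left out.

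Same-numbered samples were checked for pairing. The mean correlation of their deviations from the group means was 0.0244 for KO and WT (5 pairs), 0.189 for KI and WT (6 pairs) and 0.0914 for WT between batches (5 pairs), and no comparison had every pair over 0.1, so the numbers were not taken as pairs.

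The members, the marker lists and the tests were chosen with earlier results of these data known. By rule, the text names the members, the other arms, and for each member the 3 miRNAs most like it, as measured and after the group means were subtracted. The scripts were tested on simulated counts. Gene annotation was GENCODE vM21.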

Additional observations from a re-analysis of the deposited data

Results flagged for a closer look

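The ratio of miR-29a-3p to miR-29b-3p in KO replicate 2 stood apart from the other libraries of its group. Its log2 ratio was -0.51, whereas the other KO libraries lay between -0.30 and -0.23, and the gap took 0.762 of the range of the group, above the Dixon critical value of 0.710 for 5 samples. It was the KO library nearest to WT in this ratio. Of 24 such screens of the members and their ratios in the 4 groups, 1.2 would be expected to pass by chance.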

How the results depend on the processing

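The calls of all members between the WT batches and of miR-29a-3p in KI held under every alternative fit run and without any 1 library. In KO, miR-29b-3p was not called with library size only (-0.068), RLE size factors (-0.15), no filter (-0.23), DESeq2 (-0.15) or all 4 groups in 1 fit (-0.20), miR-29c-3p was not called with no filter (0.39), and miR-29a-3p was called with library size only (0.26), where the median of all miRNAs was 0.13. In KI, miR-29c-3p was called with library size only (0.37), DESeq2 (0.29) and counts divided by loci (0.30). The cause was not tested. With library size only, the calls were 101 higher and 44 lower in KO, 96 higher and 53 lower in KI and 47 higher and 193 lower between the WT batches.

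With the replicate number as a block, the log2 fold change of miR-29b-3p in KO was -0.175 (not called), that of miR-29c-3p in KI was 0.27 (called), and 25 miRNAs were called for the difference of the KO and KI effects, 21 of them positive. In KO 2 of 5 and in KI 3 of 6 samples correlated best with their own number. In the sign-flip test over the same pairing, no ratio passed: miR-29a-3p to miR-29b-3p at 0.33 in KO and 1.89 between WT batches, miR-29c-3p to miR-29b-3p at 0.64 in KO, 0.22 in KI and 2.71 between WT batches, and miR-29c-3p to miR-29a-3p at 0.83 between WT batches. With 5 pairs that test cannot go below 0.0625 before adjustment. The block changed no other call of the members.

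Leaving out each library in turn, log2 fold changes ranged from -0.21 to -0.13 for miR-29b-3p and from 0.31 to 0.53 for miR-29c-3p in KO, and from -0.019 (without KI replicate 3) to 0.13 for miR-29b-3p and from 0.17 to 0.35 for miR-29c-3p in KI. The difference of the KO and KI effects ranged from -0.20 to 0.019 for miR-29a-3p, positive without WT replicate 5 of batch 1 (0.019) or KO replicate 3 (0.0053). The calls for this difference ranged from 0 to 26. The log2 ratio of miR-29c-3p to miR-29a-3p ranged from -0.00048 to 0.13 in KI and from 0.18 to 0.41 in KO, and that of miR-29c-3p to miR-29b-3p from 0.17 to 0.26 in KI. For miR-29a-5p between WT batches, the sign turned with RLE size factors (0.0044), no filter (0.078), DESeq2 (0.0044), the block (0.032), 1 fit of all groups (0.037), and without WT replicate 5 of batch 1 (0.15) or WT replicate 2 (0.00089) or 6 (0.04) of batch 2. Without 1 library its values lay between -0.098 and 0.15. The difference of effects lay between -0.36 and 0.015 for miR-29a-5p, positive without WT replicate 5 of batch 1 (0.015) or KO replicate 3 (0.0021). For miR-29c-5p it lay between -0.60 and 0.087, positive without KO replicate 3 (0.087). The call of miR-29a-5p in KI was lost with no filter (0.47). Depth limits the 5p arms most, with at most 85 counts in a library.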
